A study of Danio rerio with 4 samples.

Results

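Chaperones are the proteins that help other proteins fold. Their genes were compared here between ccn2a-/- and wild-type zebrafish heart ventricles, all taken 4 days after injury (4 dpci in the labels). Members were all genes of the deposited table whose symbol belongs to the Hsp70, Hsp90, Hsp110, small heat shock, J protein (DnaJ), calreticulin, calnexin, protein disulfide isomerase or CCT chaperonin families, and whose average value in the 4 libraries was at least 10. The pattern also took hyou1 and sdf2l1, and it left out 1 symbol by name. This gave 94 genes out of 19875 in the table and out of 16730 at that mean. A further 2 matching symbols fell below it, hspa4l (1, 5, 8 and 11 in the 4 libraries, a mean of 6.25) and dnajc5b (a mean of 3), while the lowest members were dnajc5aa, with a mean of 14.25, and dnajc16, with a mean of 21.

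Hsp70 proteins bind unfolded stretches of a client in cycles of ATP hydrolysis, J proteins deliver clients to them, and exchange factors of the Hsp110 kind reset them. Each compartment has its own machinery. In the cytosol, Hsp90 and the CCT ring take over clients such as kinases, actin and tubulin, and small heat shock proteins hold damaged clients and are abundant in striated muscle. In the endoplasmic reticulum (ER), BiP, Grp94, the lectins calnexin and calreticulin and the disulfide isomerases fold secreted and membrane proteins. Mitochondria use their own Hsp70 for import and the Hsp60 and Hsp10 ring for folding.

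The study profiled messenger RNA (TruSeq stranded kit) from ventricles taken 4 days after injury, with the atrium and bulbus arteriosus cut away, in 2 ccn2a-/- and 2 wild-type libraries. ccn2a encodes a secreted matricellular protein, and the labels give neither the lesion, the strain and age of the fish, nor whether a sample pooled hearts. The p-values thus reflect how far these libraries differ within a genotype, and part of that may be technical. Values are rounded read counts after scaling by the authors, called normalised counts below, and in every list of 4 values mutant replicates 1 and 2 come before wild-type replicates 1 and 2. Depth was about 18.8, 18.1, 17.2 and 21.5 M reads in that order. In bulk tissue, fewer cells of a type and less RNA per cell cannot be told apart.

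The gene ccn2a, named ctgfa in the table, was at 3070, 1473, 4737 and 4411, lower in both mutants but still detected. Of 11 ventricular cardiomyocyte marker symbols, 9 were found, and none of their rows was at 0 in any library; vmhc and vmhcl were not matched. Their summed level was 1007877 and 815200 in the mutants and 701551 and 489994 in wild type. Wild-type replicate 2 thus held the lowest cardiomyocyte sum, and its transcripts of the mitochondrial genome made up 7.66% of the values, against 13.4% to 14.7% in the other libraries. Because this library stands apart, the group medians and many of the fold changes below are also given without it.

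Among the 94 chaperone genes, none passed an adjusted p of 0.05 (limma with Benjamini-Hochberg adjustment over 16730 genes; smallest adjusted p of a member 0.381), and 0.0% of all genes passed. At an unadjusted p under 0.05 there were 7 members lower and 3 higher in the mutant, against 6.93% and 5.89% of all genes, so the members' shares of 7.45% and 3.19% were near or under the background. Limma voom on approximate reads called 0 as well, with 9 lower and 3 higher at an unadjusted p under 0.05. The counts with limma fell to 1 lower and 0 higher without mutant replicate 1, and to 2 lower and 0 higher without wild-type replicate 2. No gene below is therefore said to have changed, and higher and lower describe the 4 libraries. Fold changes are log2 differences of mutant over wild type on the log2(value + 1) scale, with the standard error (SE) of the fit.

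The compartments differed in where their members lay. Median log2 fold changes were -0.63 for the 9 ER Hsp70, Hsp90 and lectin chaperones, -0.39 for the 5 disulfide isomerases, -0.31 for the 13 cytosolic Hsp70, Hsp90 and Hsp110 genes (-0.27 without hspa12a, which has a library at 0) and -0.20 for the 15 ER J proteins. They were -0.16 for the 8 CCT subunits, -0.07 for the 24 other J proteins, 0.08 for the 12 mitochondrial chaperones and 0.34 for the 8 small heat shock genes, against 0.00 over all genes tested. Without wild-type replicate 2 the medians were nearer to 0 in all groups but the other J proteins, at -0.27 and -0.19 for the first pair of ER groups, -0.11 for ER J proteins, -0.19 for cytosolic Hsp70, Hsp90 and Hsp110, -0.056 for CCT, -0.035 for mitochondrial and 0.16 for small heat shock genes. The genotypes did not overlap at 54 members (57.4%), against 52.3% of all genes. Both mutants lay below both wild types at 36 members (38.3%), where the background is 25.7%, and above both at 18 (19.1%), where it is 26.6%.

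**Figure D1:**
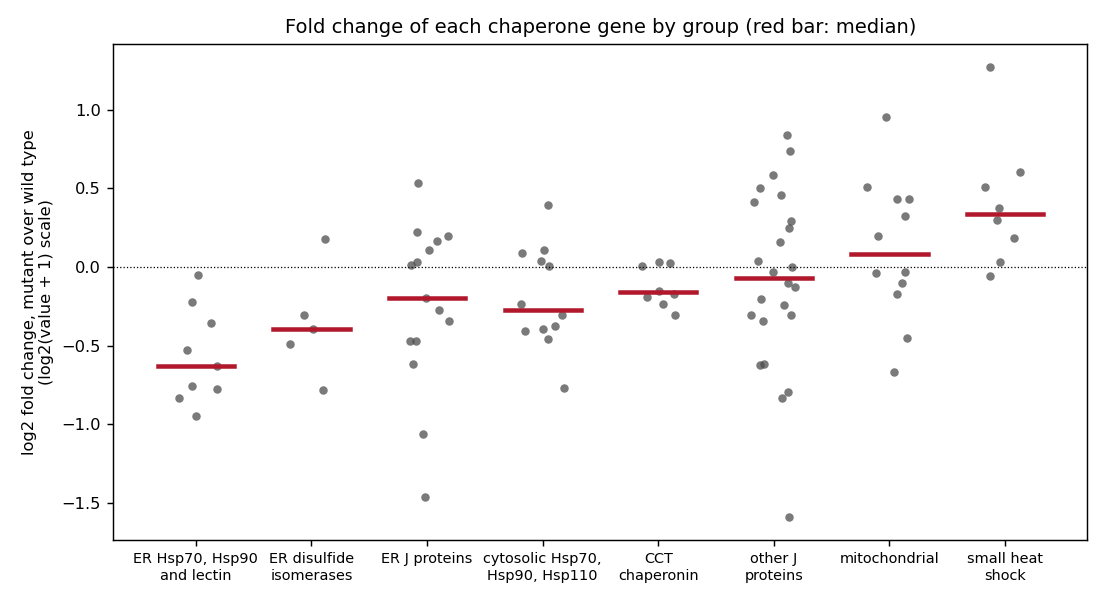
Each point is the log2 fold change of 1 chaperone gene, mutant over wild type (y axis, log2(value + 1) scale), placed by compartment group (x axis), and the red bar is the group's median. Medians run from -0.63 for the ER Hsp70, Hsp90 and lectin group to 0.34 for small heat shock genes; hspa12a, listed at 0 in mutant replicate 1, is left out of the points and of its group's bar, which stands at -0.27.

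The chaperones of the ER lumen gave the most one-sided picture. Of the 14 ER chaperones and disulfide isomerases, 13 were lower in the mutant by fold change (8358 of the 16730 genes tested were), 11 had both mutants below both wild types, against 25.7% of all genes, and none had both mutants above, against 26.6%. The gene hspa5, which encodes BiP, the main ER Hsp70, was at 5773, 4686, 5991 and 12868. Its partner hsp90b1, which encodes the ER Hsp90 Grp94, was at 5426, 5826, 6961 and 13377. For hyou1, the ER exchange factor of the Hsp110 kind, the values were 1497, 1529, 1852 and 3928. At all of these genes wild-type replicate 1 was close above the mutants and wild-type replicate 2 was far above all other libraries. The log2 fold changes were -0.76 (SE 0.380) for hspa5, -0.78 (SE 0.334) for hsp90b1 and -0.83 (SE 0.359) for hyou1. Without wild-type replicate 2 they were -0.20, -0.31 and -0.29.

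The lectin chaperones hold newly made glycoproteins until they are folded, and they differed among themselves. The calreticulin family gene calr3b had the smallest unadjusted p of all members (0.0098), at 1822, 2077, 3043 and 4611, a log2 fold change of -0.94 (SE 0.254, adjusted p = 0.381, limma). Here wild-type replicate 1 was also clearly above both mutants, and the log2 fold change without wild-type replicate 2 was -0.65. Its relative calr3a was at 4107, 4853, 5396 and 7672, with mutants below wild types by smaller steps (-0.53, or -0.27 without wild-type replicate 2). The gene calr itself was at 1335, 1050, 1169 and 1973, and there the groups overlapped. The membrane-bound lectin gene canx was at 4612, 5068, 5229 and 6088, a small difference beside its error (log2 fold change -0.22, SE 0.199, or -0.11 without wild-type replicate 2). Of the remaining members of this group, hspa13, an ER Hsp70 without the usual client-binding part, was at 267, 226, 304 and 478, and sdf2l1, whose product works with ER J proteins, was at 422, 465, 499 and 424 with no order by genotype.

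Disulfide isomerases make and shuffle the cysteine bridges of secreted proteins. Of the 5, 4 had both mutants below both wild types, against 25.7% of all genes. The gene pdia4 was at 1668, 2093, 2404 and 4302, a log2 fold change of -0.78 (SE 0.314). For pdia6 the values were 1332, 1400, 2056 and 1782, a log2 fold change of -0.49 (SE 0.188), and here wild-type replicate 1 was the highest library. Without wild-type replicate 2 the log2 fold change was -0.59 for pdia6 and -0.36 for pdia4. The glycoprotein isomerase gene pdia3 (7077, 7968, 8352 and 10303) and pdia5 (724, 832, 886 and 1172) had the order of libraries seen for pdia4, with log2 fold changes of -0.30 and -0.39, or -0.15 and -0.19 without wild-type replicate 2. The exception was pdia2, an isomerase known from the pancreas in mammals, at 43, 20, 23 and 29.

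**Figure D2:**
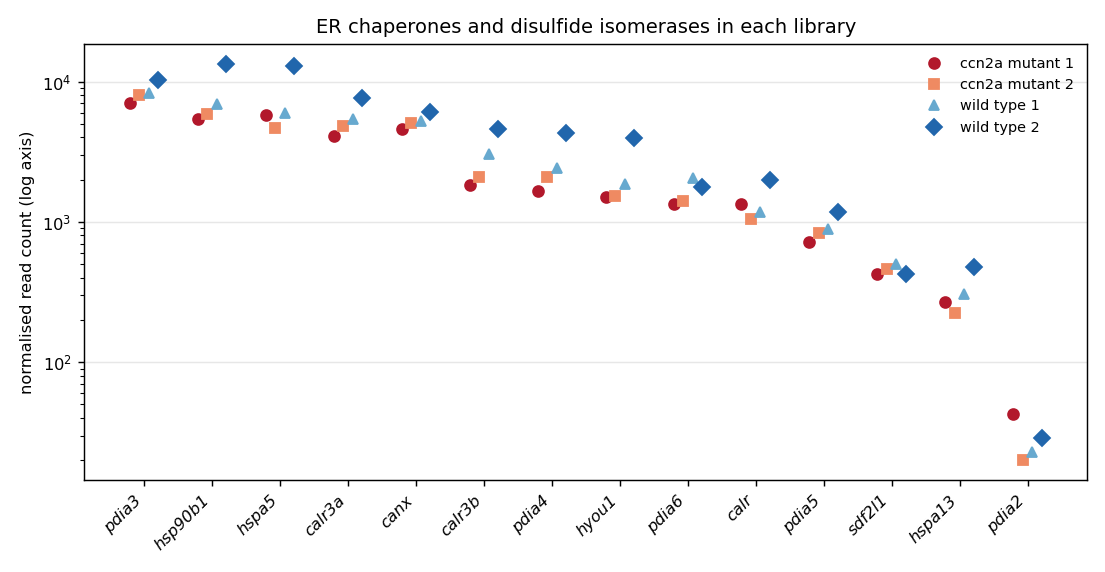
Normalised read counts (y axis, log axis) of the 14 ER chaperones and disulfide isomerases (x axis, ordered by mean), with 1 point for each of the 4 libraries. Wild-type replicate 2 is the highest library at 11 of the 14 genes, for example 12868 for hspa5, against 34.2% of all genes tested. The mutants lie below both wild types at 11, against 25.7% of all genes tested.

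The order of the libraries within this group was measured in several ways. Wild-type replicate 2 exceeded wild-type replicate 1 by a median of 0.55 (log2) over the 14 genes, while wild-type replicate 1 exceeded the mean of the mutants by a median of 0.24. Against wild-type replicate 1 alone, both mutants were lower at 12 of the 14 genes (85.7%), where 35.1% of all genes tested were, and against wild-type replicate 2 alone at 12, where 40.0% were. For the 9 chaperones without the isomerases, the median fold change was -0.27 without wild-type replicate 2 and -0.96 without wild-type replicate 1. The direction was thus the same against either wild-type library, and its size was set mainly by 1 of them. Both comparisons use the same mutant libraries and the same genes, so they are not independent of each other.

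Marker lists of secretory cells were read beside these genes. Exocrine pancreas markers, of which 10 of 18 were matched and 7 tested, summed to 459 and 351 in the mutants and 916 and 1410 in wild type; ctrb1 (98, 82, 704 and 1179) made up most of the wild-type sums. Of the 7 tested, only ctrb1 and amy2a were lower in the mutant and 5 were higher, with a median log2 fold change of 0.75, among them cpa5 at 145, 123, 90 and 44 and ela2 at 50, 29, 16 and 20; ctrl was at 0 in wild-type replicate 1. That list holds pdia2, a member, and cpa5, which the neutrophil list also holds. Fibroblast markers, 7 of 7 matched and none at 0, summed to 286282 and 162652 against 199461 and 251830, so the genotypes overlapped. B and plasma cell markers, 3 of 6 matched and none at 0, summed to 233 and 596 against 711 and 169. Most of each sum came from the ighm row (210, 565, 698 and 145). Liver markers, 7 of 9 matched and 2 tested, summed to 5047 and 4369 against 5322 and 8110, with the libraries in the order seen for hspa5. Nearly all of each sum was tfa (4929, 4350, 5313 and 8096), and the other tested gene, apoa2, was higher in both mutants (37, 5, 1 and 3). Of the other lists, epicardial markers had 4 lower and 1 higher by fold change. Their sums, 9013 and 8287 against 9015 and 9991, were also in the order seen for hspa5. Macrophage markers had 7 lower and 4 higher, and neutrophil markers 5 lower and 3 higher, where 8358 of the 16730 genes tested were lower. Macrophage sums overlapped, at 41348 and 32291 against 34773 and 25919. The part of any of these cells in the ER result was not tested.

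J proteins of the ER went both ways. Those that work in the lumen were mostly lower in the mutant. The BiP partner gene dnajb11 was at 786, 837, 962 and 1310 (log2 fold change -0.47, SE 0.224, or -0.25 without wild-type replicate 2), dnajc10, whose product also reduces disulfides, was at 566, 577, 606 and 787, and dnajc3b was at 754, 832, 861 and 959. All of these had both mutants below both wild types, whereas dnajc3a (402, 338, 401 and 652) overlapped. The stress-inducible dnajb9a and dnajb9b were low, at 39, 45, 61 and 47 and at 42, 55, 51 and 39, and dnajc1 was level, from 1531 to 1577.

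Another 4 ER J proteins are anchored in the membrane with the J domain facing the cytosol. They were picked out after their values were seen, so they do not stand for all ER J proteins of that kind. The genes dnajb12a (646, 610, 551 and 526), dnajb12b (153, 143, 132 and 132), dnajb14 (245, 218, 209 and 195) and dnajc18 (543, 507, 397 and 329) had both mutants above both wild types. Only dnajc18 reached an unadjusted p under 0.05, with a log2 fold change of 0.54 (SE 0.217), and the others had 0.16 to 0.22. Among all 15 ER J proteins, these 4 genes (26.7%) were the only ones with the mutants above, near the 26.6% of all genes. The reverse order was seen at 7 (46.7%, against 25.7% of all genes), dnajc14, dnajc16 and dnajc25 among them. The remaining ER J proteins were low or level. The gene dnajc14 was at 10, 34, 46 and 61, dnajc16 at 17, 10, 26 and 31, dnajc25 at 82, 118, 142 and 162, and dnajc16l at 572, 715, 688 and 569, which overlapped. The first 3 of these had log2 fold changes of -1.46, -1.06 and -0.62, with SEs of 0.642, 0.525 and 0.315. They were -0.63 for dnajc14 and -0.36 for dnajc25 without mutant replicate 1, and -0.71 for dnajc16 without mutant replicate 2.

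Genes around the ER chaperones were read from a list of stress sensors, folding enzymes and degradation factors, of which 56 were tested. Of these, 36 were lower and 20 higher, with a median of -0.19, or -0.077 without wild-type replicate 2; 3 lower (5.36%) and 1 higher (1.79%) reached an unadjusted p under 0.05, under the 6.93% and 5.89% of all genes, and 0 passed over all genes, so the values below are a description. The stress sensor gene ern1, whose product splices xbp1 mRNA, was at 260, 299, 927 and 600, a log2 fold change of -1.42 with the mutants well below both wild types. Among transcription factor genes of the stress response, atf4a was at 5621, 3985, 6240 and 7594, with both mutants below both wild types. Its duplicate atf4b went the other way, at 4994, 5007, 4517 and 4210, with both mutants above both wild types. The groups overlapped for xbp1 at 4639, 4139, 4273 and 4158, for atf6 at 746, 744, 768 and 614, and for ddit3 at 730, 798, 706 and 910. Secreted stress-response proteins followed the order seen for hspa5: creld2 was at 251, 229, 304 and 495 and manf at 736, 659, 841 and 1241. The glucosidase gene mogs (340, 391, 483 and 626) and the collagen hydroxylase gene p4ha1a (200, 257, 309 and 482) were lower in both mutants, and derl3, a gene of ER-associated degradation, was higher (490, 478, 366 and 286).

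**Figure D3:**
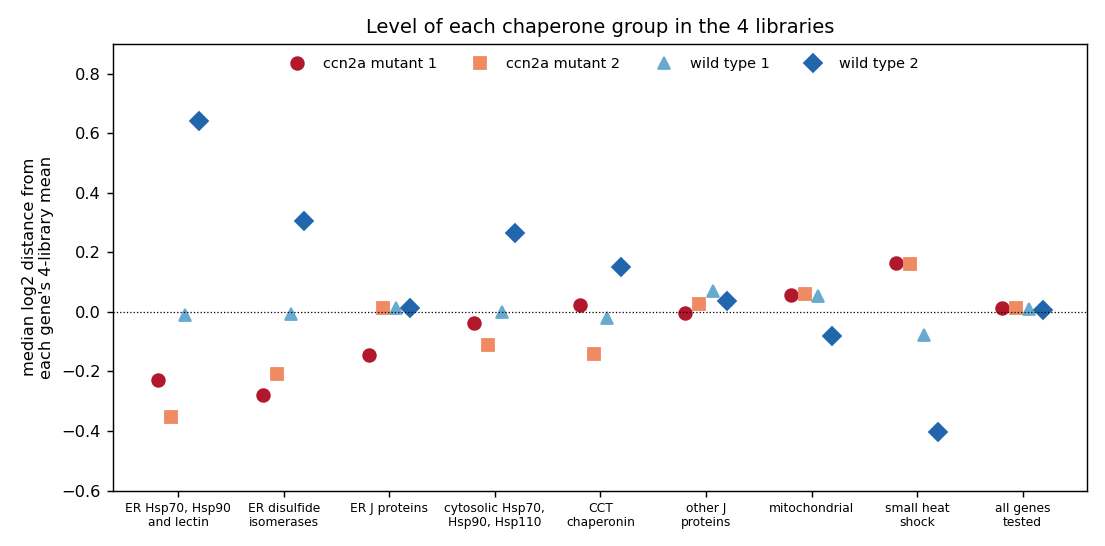
Median distance of each group's genes from their own 4-library mean (y axis, log2), for each of the 4 libraries (symbols), by chaperone group and over all genes tested (x axis). Wild-type replicate 2 stands at 0.64 for the ER Hsp70, Hsp90 and lectin group and at -0.40 for small heat shock genes, while the values over all genes lie at 0.01 in every library.

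The constitutive cytosolic Hsp70 and Hsp90 genes did not separate the genotypes. The constitutive Hsp70 gene hspa8 was at 51879, 39792, 51718 and 75512, with wild-type replicate 2 highest and the other libraries overlapping. The constitutive Hsp90 gene hsp90ab1 was at 58085, 46316, 44693 and 51887, and hsp90aa1.2, a second cytosolic Hsp90 gene, at 858, 518, 820 and 913. The stress-inducible Hsp70 genes were low in every library: hsp70l was at 87, 61, 130 and 36, hsp70.1 at 15, 29, 18 and 34, hsp70.2 at 50, 50, 34 and 42, and hsp70.3 at 33, 31, 24 and 42. The last 3 are neighbours on chromosome 3 (26112780 to 26127091) and near copies, so reads can be shared among them. The inducible exchange factor gene hsph1 was equally level, at 204, 156, 181 and 167. Of these inducible Hsp70 and Hsp110 genes, only hsp70.2 had groups that did not overlap, and 52.3% of all genes had such groups.

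The exchange factor genes hspa4a and hspa4b and the genes of the ribosome-bound chaperones were lower in both mutants, an order seen at 25.7% of all genes. The Hsp110-type gene hspa4a was at 1430, 1458, 1885 and 3217, a log2 fold change of -0.77 (SE 0.284, unadjusted p under 0.05), or -0.38 without wild-type replicate 2. Its duplicate hspa4b was at 1589, 1726, 1872 and 2581 (-0.41, SE 0.224, or -0.18 without wild-type replicate 2). In mammals the products of HSPA14 and DNAJC2 form a complex at the ribosome that meets new chains. Here hspa14 was at 524, 670, 753 and 809 and dnajc2 at 186, 243, 320 and 450, so both ranked the 4 libraries in the same order, with log2 fold changes of -0.40 (SE 0.216) and -0.83 (SE 0.283); for hspa14 it was -0.22 without mutant replicate 1. The gene dnajc21, whose product acts in ribosome assembly, ranked them likewise, at 117, 210, 222 and 336. Many other members had that same order of libraries, hsp90b1, pdia3 and hspd1 among them, so it is not particular to these genes. The divergent Hsp70 genes hspa12a (0, 39, 59 and 59) and hspa12b (220, 525, 455 and 389) were lowest in mutant replicate 1. The gene hspa12a is listed at 0 there, so no fold is given.

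The CCT chaperonin is a ring of different subunits that folds actin and tubulin, and its genes were among the most even members. The genes cct3, cct4 and cct7 had both mutants below both wild types (37.5% of the 8, against 25.7% of all genes). None had both above, against 26.6%. The gene cct4 was at 3378, 3248, 3658 and 4584, and log2 fold changes of these 3 genes ran from -0.31 to -0.17. Without wild-type replicate 2, cct4 was at -0.14 and cct7 at -0.10. For tcp1, which encodes the alpha subunit, the values were 3554, 3178, 3382 and 4127, and the groups overlapped as they did for cct5 (4767, 4392, 4224 and 4789), cct6a, cct8 and cct2. No subunit differed by more than 0.31 in log2. The row for cct2 was at 546, 437, 541 and 613, far below the 3178 to 6699 of the other subunits, and its gene model spans 1385 bases on chromosome 4 (78008298 to 78009682, as the table prints them) against 7710 or more for the others. These levels are not scaled by length, so the rows cannot be ranked as levels. Of 9 tested genes of prefoldin and other CCT partners, 3 were lower and 6 higher, with a median of 0.06 and none at an unadjusted p under 0.05.

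The remaining J proteins went both ways. Lowest in the mutant was dnajb5, a cytosolic Hsp40 gene, at 41, 90, 140 and 245, a log2 fold change of -1.59 (SE 0.487, adjusted p = 0.381, limma), or -1.03 without mutant replicate 1. On the higher side, dnaja2l was at 1067, 949, 769 and 410 (0.84, SE 0.324, or 0.39 without wild-type replicate 2) and dnajb6b, from a family that keeps proteins from aggregating, at 5128, 4661, 3911 and 3038 (0.50, SE 0.213, or 0.32 without wild-type replicate 2). Together with dnajb4 (628, 494, 411 and 424), dnaja2 (5276, 4572, 3797 and 4227), dnajc6 (45, 57, 30 and 30) and dnajc12 (323, 259, 233 and 255), these had both mutants above both wild types. They were 6 of the 24 (25%, against 26.6% of all genes). Both mutants lay below both wild types at 8 (33.3%, against 25.7%), dnaja1 and dnajb1a among them. Of the other class A and B genes, dnaja1 was at 103, 80, 127 and 155, dnajb1a at 185, 175, 191 and 260, and dnajb1b at 247, 166, 213 and 256. The other 12 J proteins of the cytosol and nucleus, among them the spliceosomal dnajc8 and dnajc17 and the vesicle-bound dnajc5 genes, had log2 fold changes from -0.62 for dnajc5aa to 0.58 for dnajc27.

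A list of heat shock factors and of co-chaperones of Hsp70 and Hsp90 gave 31 tested genes, 20 lower and 11 higher, with a median of -0.13. The Hsp90 co-chaperone duplicates diverged: ahsa1a was at 583, 477, 308 and 289, and ahsa1b at 452, 417, 506 and 794. The gene ptges3b, which encodes the Hsp90 co-chaperone p23, was at 733, 1011, 1172 and 1661. Only ahsa1a and ptges3b of this list were at an unadjusted p under 0.05, 1 in each direction (3.23% each), under the background of 5.89% higher and 6.93% lower. The master regulator gene hsf1 was at 384, 679, 742 and 538, with overlapping groups.

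Small heat shock genes lay mostly on the other side from the ER chaperones. By fold change 7 of 8 were higher in the mutant, where 8372 of the 16730 genes tested were. Only 3 had both mutants above both wild types (37.5%, against 26.6% of all genes), and none had both below, against 25.7%. At the other 5 the groups overlapped, among them hspb9, which was level with a log2 fold change of 0.03. The gene hspb1, which encodes Hsp27, was at 25303, 25267, 18495 and 17134, a log2 fold change of 0.51 (SE 0.228). The mutants were nearly equal there and stood above both wild types. The muscle gene hspb2 was at 589, 444, 411 and 276 (0.60, SE 0.286, or 0.31 without wild-type replicate 2), and hspb7, a small heat shock gene of heart muscle, was at 19523, 17233, 15931 and 16379. Both again had the mutants above both wild types, and the hspb7 direction reversed to -0.070 under quantile normalisation.

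The largest fold change of this family rested on 1 library. The gene hspb6 was at 22162, 3541, 3329 and 4030, so only mutant replicate 1 was high, and its log2 fold change of 1.27 (SE 0.789) became -0.049 without that library. The myosin chaperone gene unc45b, of the co-chaperone list, was also highest in mutant replicate 1, at 4218, 2120, 2144 and 2359. The gene hspb8, whose product works with that of bag3 in clearing damaged muscle proteins, was at 3926, 5064, 4932 and 2656, and bag3 at 1895, 2194, 2040 and 1246. Both had the same order of libraries, with wild-type replicate 2 lowest. The gene hspb3 was at 233, 246, 234 and 145, and hspb9 at 22 or 23 in every library. The row named hspb11, a small heat shock gene now called hspb9l, was at 17224, 26985, 19920 and 25224 with no order by genotype. The median of the group was 0.16 without wild-type replicate 2 and 0.64 without wild-type replicate 1. As sums, cardiomyocyte markers, given above, were likewise highest in the mutants and lowest in wild-type replicate 2. By fold change, 9 of their 11 rows were higher in the mutant and 2 were lower. Erythrocyte markers as sums had the same order, at 260401 and 229590 against 159431 and 122853, with no row at 0. By fold change 9 of 9 rows were higher in the mutant, where 8372 of the 16730 genes tested were. Of these rows, gata1a was level and its groups overlapped (347, 333, 375 and 308, log2 fold change 0.0003). Endothelial markers were higher at 6 of 7, none at 0, with sums of 22674 and 23349 against 18290 and 16375. The part of these cells in the small heat shock values was not tested.

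Mitochondrial chaperones went both ways. The Hsp60 gene hspd1 was at 2763, 3571, 4365 and 5692, a log2 fold change of -0.67 (SE 0.237, unadjusted p under 0.05), with both mutants below both wild types. Its lid gene hspe1, which encodes Hsp10, was at 1962, 2201, 2456 and 2236, a smaller difference of -0.17 (SE 0.187, or -0.090 without mutant replicate 1). They lie head to head on chromosome 9, with hspd1 at 32286605 to 32300783 on the minus strand, hspe1 at 32301017 to 32305007 on the plus strand and 233 bases between them. The import Hsp70 gene hspa9 was level, at 7084, 7405, 7623 and 7939, as were dnaja3a (840 to 938) and dnajc11a (969 to 1168).

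On the higher side stood dnajc4, at 849, 476, 371 and 289, a log2 fold change of 0.96 (SE 0.329, unadjusted p under 0.05), or 0.54 without mutant replicate 1. Other J protein genes with both mutants above both wild types were dnajc28 (167, 121, 98 and 113), dnajc30b (141, 118, 103 and 88) and dnaja3b (296, 336, 285 and 223). With dnajc4 they were 4 of the 12 mitochondrial members (33.3%, against 26.6% of all genes). Both mutants lay below both wild types at 3 (25%, against 25.7%). The inner membrane J protein genes dnajc15 (932, 739, 786 and 433) and dnajc19 (292, 277, 290 and 213) overlapped and were lowest in wild-type replicate 2, and dnajc11b was at 59, 109, 101 and 120. Around them, 32 genes of mitochondrial import and protein quality control had 12 lower and 20 higher, a median of 0.17, and 16 with both mutants above both wild types, where the background is 26.6%. Among these the unfoldase gene clpxa was at 2094, 1591, 1291 and 805 and timm23b at 29, 41, 6 and 15. They were the only genes of the list at an unadjusted p under 0.05 (limma). That is 6.25% higher and 0 lower, against 5.89% and 6.93% of all genes. The mitochondrial Hsp90 gene trap1 (911, 1149, 1221 and 1290) was among 4 genes with both mutants below both wild types (12.5%, against 25.7%). The protease gene lonp1 (1167, 883, 907 and 1126) overlapped.

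**Figure D4:**
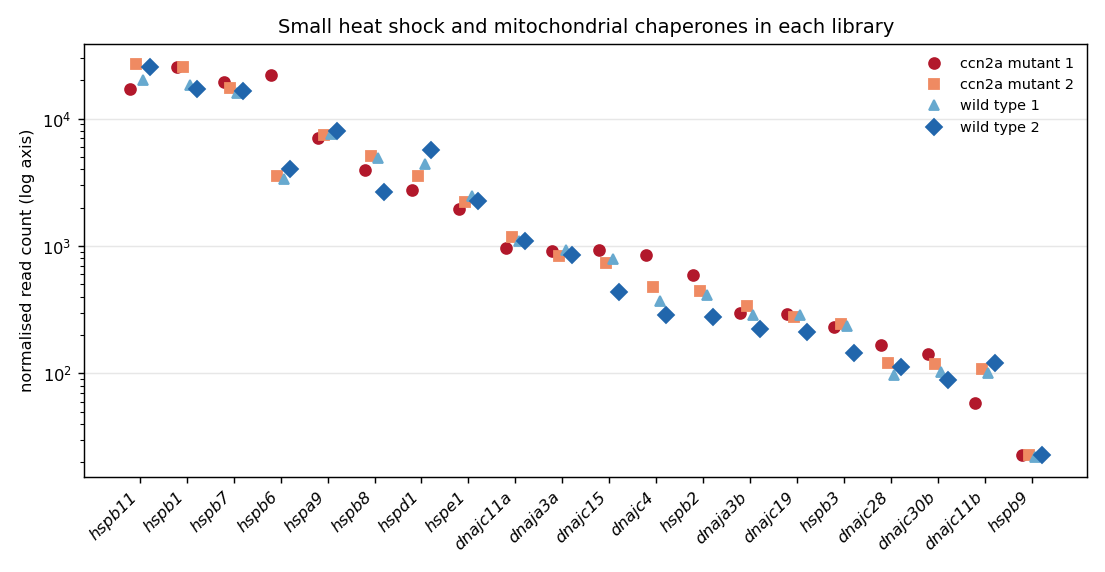
Normalised read counts (y axis, log axis) of the 8 small heat shock and 12 mitochondrial chaperone genes (x axis, ordered by mean), with 1 point for each of the 4 libraries. The gene hspb6 stands out with 22162 in mutant replicate 1 against 3329 to 4030 in the others, hspb1 is higher in both mutants, and hspd1 is lower in both.

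Many zebrafish chaperones come as pairs of related genes, and 13 such pairs were compared. In 8 pairs both fold changes had the same sign, 6 lower and 2 higher in the mutant, and in 4 pairs the signs were opposite. In the pair left, dnajb6a lay within 0.01 (log2) of 0 and dnajb6b was at 0.50. The pair hspa4a and hspa4b and the pair calr3a and calr3b had both mutants below both wild types at all of their genes. The reverse order was seen at both genes of the dnajb12a and dnajb12b pair and of the dnaja2 and dnaja2l pair. Of all single genes tested, 25.7% had both mutants below and 26.6% had both above. The widest gap was between dnajc16, a low gene, and dnajc16l, with log2 fold changes of -1.06 and 0.03, and the gap between dnaja2 (0.29) and dnaja2l (0.84) came next. Of the opposite pairs, dnajb9a and dnajb9b each lay within 1 SE of 0, at -0.35 (SE 0.380) and 0.11 (SE 0.395). Differences between the genes of a pair were not tested.

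**Figure D5:**
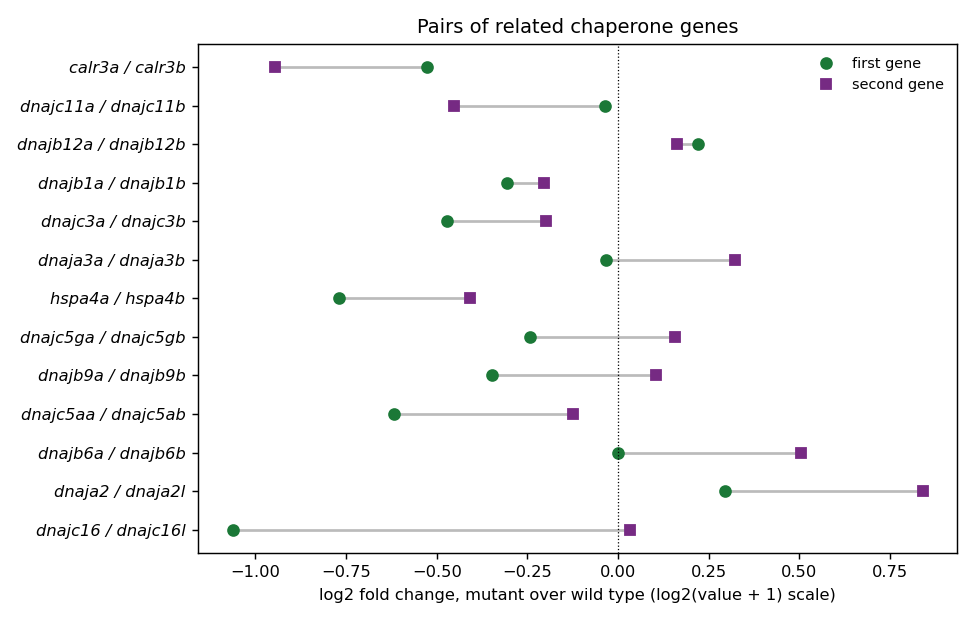
Log2 fold changes, mutant over wild type (x axis, log2(value + 1) scale), of the 13 pairs of related chaperone genes (y axis); the circle is the gene named first and the square the gene named second. The calr3 and hspa4 pairs lie wholly below 0, from -0.94 to -0.41, and the dnaja2 and dnajb12 pairs wholly above it.

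Few members lay close to each other or to ccn2a. On chromosome 20, where ctgfa lies at 25340814 to 25343490, there were 4 members, and the nearest was pdia6, 5.88 Mb away with a log2 fold change of -0.49. The genes hyou1 and hspa8 lie 58030 bases apart on chromosome 10 on the same strand, and their fold changes were -0.83 and -0.46, or -0.29 and -0.19 without wild-type replicate 2. Counting overlaps in the table, 22 members share bases with another gene, 17 of them with a gene on the opposite strand, and since no source used here says whether counting was by strand, reads of such partners cannot be told apart. For hspa4a the partner is zcchc10, with a mean of 126.5, and for dnajc2 it is pmpcb, with a mean of 359.5, which is above the mean of dnajc2 itself. The partner is also the higher gene for dnaja1 (mean 116.25), which overlaps smu1b (231.5). It is so too for hsp70.1, hsp70.2 and hsp70.3 (24, 44 and 32.5), which overlap atp2a1 (85.5), hsp70.3 on the same strand.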

How the data were processed

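The members, lists and rules were chosen with earlier results of these data known. Per the submitters' processing notes, STAR 2.4.0a, featureCounts 1.4.5-p1 from Subread, DESeq2 1.6.2 and GRCz10 (danRer10) were used; their settings, strand included, are not given in the sources used here. Of the table, the largest coordinate, 78048911 on chromosome 4, lies beyond that chromosome's end in GRCz10, so the build is unsettled and coordinates are as printed. The deposited score per gene and library is a read count that the authors scaled and rounded, as read from the values. In both mutant libraries and wild-type replicate 1 the low range falls on a regular spacing, which gave factors of 0.874, 0.946 and 0.952. Wild-type replicate 2 had no empty low values, and its factor of 1.32 was fitted to how often each low value occurred. Value times factor gave the approximate depth. Whole reads could not be recovered where the factor exceeds 1. All 4 sample columns were used (0 left out).

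The mutant and wild-type libraries were set against each other in limma-trend (limma 3.58.1, R 4.3.3) on log2(value + 1), with no block, over 16730 genes with a mean of 10 or more, Benjamini-Hochberg adjustment over all of them and a threshold of 0.05. The fit, with 2 residual degrees of freedom and 4.01 added by limma, was tested on simulated data. There all libraries had the same spread and none stood apart, so it does not show how the fit handles wild-type replicate 2. With 4 libraries no correction for batch was possible, as the labels give none. Compartments were assigned by hand from symbols and roles known in mammals. The text names, per group, the 6 members with the smallest p and a list of core chaperones, and gives the rest as values or ranges. Lists were matched by symbol, and all 94 members had an entry in the gene name reference. Alternatives were 2 other pseudocounts, no filter, a mean of 50, quantile and median-of-ratios rescaling, voom, a replicate block and leaving out each library. Figures used Python 3.11.15, pandas 2.3.3, numpy 2.4.6 and matplotlib 3.10.9. Sequences were not used here.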

Additional observations from a re-analysis of the deposited data

How the results depend on the processing

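The comparison of 2 libraries with 2 has little power, so an uncalled gene is not shown to be unchanged. Over 12 alternative settings no member passed an adjusted p of 0.05 with limma. Members at an unadjusted p under 0.05 and lower in the mutant numbered 11 under quantile normalisation and 12 with the replicate block, against 7 in the reported fit, and between 1 and 13 when 1 library was left out; those higher numbered 0 to 5, against 3, and all genes at that level 448 to 2597, against 2145. The counts fell to 1 and 0 without mutant replicate 1 and to 2 and 0 without wild-type replicate 2. The replicate numbers were not shown to pair the libraries: the correlation of same-numbered deviations across genes was 0.0041.

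When 1 library was left out, the medians ranged from -0.16 to -0.082 for all members, -0.96 to -0.27 for ER Hsp70, Hsp90 and lectin chaperones, -0.49 to -0.19 for disulfide isomerases, -0.27 to -0.11 for ER J proteins, -0.24 to -0.056 for CCT subunits, -0.45 to -0.17 for cytosolic Hsp70, Hsp90 and Hsp110, 0.16 to 0.64 for small heat shock genes, -0.035 to 0.18 for mitochondrial chaperones and -0.079 to -0.0082 for other J proteins. For the surrounding lists they ranged from -0.19 to -0.094 (co-chaperones), -0.025 to 0.045 (prefoldin), -0.27 to -0.077 (ER stress and folding) and 0.13 to 0.25 (mitochondrial import). Quantile normalisation moved the median to -0.18 for all members, -0.29 for CCT, -0.11 for other J proteins, -0.0014 for prefoldin and 0.087 for mitochondrial import; the cause was not tested. A mean of 50 or more moved that of ER J proteins to 0.0093, since it removes low genes.

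Directions reversed for some genes, among them hspb6, whose log2 fold change was 1.27 in the reported fit. Under quantile normalisation cct8 was at -0.11, cct5 at -0.14, hsp90ab1 at -0.076 and hspb7 at -0.070, and with voom hsp70.3 was at -0.030. With 1 library left out, log2 fold changes ranged from -0.053 to 0.11 for cct8, -0.066 to 0.12 for cct5, -0.17 to 0.063 for sdf2l1, -0.085 to 0.30 for dnajb9b, -0.69 to 0.22 for hsp70.1, -0.056 to 0.27 for hsp90ab1, -0.16 to 0.23 for hsph1, -0.83 to 1.00 for hsp70l, -0.38 to 0.40 for hsp70.3, -0.35 to 0.71 for pdia2, -0.49 to 0.081 for dnajb1b, -0.049 to 2.60 for hspb6 and -0.15 to 0.75 for hspb8.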
